A study of Mus musculus with 9 samples.

Results

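The mitochondrial ribosome was followed through the transcripts of its proteins in mouse hindlimb skeletal muscle at postnatal days 2, 7 and 14 (P2, P7 and P14). Members were all genes with the symbol Mrpl (large subunit) or Mrps (small subunit) followed by a number, read from probe sets with a single gene symbol. They came to 71 of the 22180 genes measured, 43 of the large and 28 of the small subunit. Each age had 3 arrays, numbered as replicates in the labels, so 9 arrays were used. The strain is given as mixed at every age, and no mutation or treatment is named. The labels do not say how many animals stand behind each replicate, nor their sex. The values are log2 intensities, so a difference of 1 is a 2-fold change in signal.

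Mitochondria carry their own ribosome, which makes the handful of respiratory chain subunits encoded in mitochondrial DNA. Its RNAs come from mitochondrial DNA, but its proteins are encoded in the nucleus, made in the cytosol and imported. The small subunit binds the messenger RNA and holds the decoding centre, and the large subunit holds the site of peptide bond formation and the exit tunnel, which lies against the inner membrane. Skeletal muscle builds up its respiratory capacity after birth, and assembly of the respiratory complexes needs products of both genomes.

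Mitochondrial ribosomal protein transcripts were higher at P14 than at P2, in both subunits, and none was called lower. From P2 to P14, 21 of the 71 members rose and 50 were not called (limma, Benjamini-Hochberg adjusted p under 0.05 over all 22180 genes), beside 6.63% of all genes called higher. From P7 to P14 6 members rose, beside 1.72% of all genes called higher, and the median log2 change was 0.37, against 0.02 over all genes. From P2 to P7 none was called, beside 0.185% of all genes called higher, and the median was 0.10, against -0.01. The median log2 change from P2 to P14 was 0.50 in the large subunit and 0.46 in the small, against 0.01 over all genes.

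Of the 6 genes that rose from P7 to P14, all but Mrpl38 have a promoter in the RefSeq table (GRCm38.p6). These stretches are shown because those genes carry the calls of the later interval. Each runs from 150 bases before to 30 bases after the annotated start, 5′ to 3′ on the strand of the gene. Capitals mark matches to motifs of nuclear respiratory factor NRF1, of ETS factors such as GABPA, or of YY1, all known as regulators of nuclear genes for mitochondria.
Mrpl16, chr19:11770265-11770444, plus strand: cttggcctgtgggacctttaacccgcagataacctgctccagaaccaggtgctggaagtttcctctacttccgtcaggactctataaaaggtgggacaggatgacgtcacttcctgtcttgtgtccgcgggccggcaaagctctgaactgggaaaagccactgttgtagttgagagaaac
Mrpl34, chr8:71464776-71464955, plus strand: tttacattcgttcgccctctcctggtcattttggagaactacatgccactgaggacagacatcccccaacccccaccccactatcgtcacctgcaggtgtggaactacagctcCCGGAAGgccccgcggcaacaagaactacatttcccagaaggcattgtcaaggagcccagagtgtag
Mrpl42, chr10:95501920-95502099, minus strand: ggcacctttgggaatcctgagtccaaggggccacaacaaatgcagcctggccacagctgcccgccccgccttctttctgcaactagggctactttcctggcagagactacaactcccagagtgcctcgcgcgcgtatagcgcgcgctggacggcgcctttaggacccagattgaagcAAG
Mrpl45, chr11:97315566-97315745, plus strand: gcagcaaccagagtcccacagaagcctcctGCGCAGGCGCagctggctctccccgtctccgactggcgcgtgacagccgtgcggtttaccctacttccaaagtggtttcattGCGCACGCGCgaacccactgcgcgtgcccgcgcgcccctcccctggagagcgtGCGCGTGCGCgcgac
Mrps22, chr9:98601650-98601829, minus strand: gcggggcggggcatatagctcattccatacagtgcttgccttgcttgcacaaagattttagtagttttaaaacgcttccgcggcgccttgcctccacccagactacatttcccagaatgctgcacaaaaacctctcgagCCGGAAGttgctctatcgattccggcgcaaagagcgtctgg
Mrpl45 holds 3 matches to the NRF1 motif, and Mrpl34 and Mrps22 hold 1 match each to the ETS motif. In Mrpl42 a YY1 match begins in the last 3 bases shown and ends beyond them. Mrpl16 holds no match to these 3 motifs in its window, though it does hold the letters of a TATA box.

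The motifs searched on both strands, over the whole 300 bases of the table, were GCGC, any base, T and GCGC in a row for NRF1, CCGGAAG for ETS factors, AANATGGCG for YY1 and TATAAA for the TATA box. Promoters were found for 62 of the 71 members, 3 of which have more than 1. The ETS motif was present in 23 of the 62 (37.1%), against 9.93% of 27025 genes with a promoter and 12.7% of the 16918 of them measured here. The NRF1 motif was present in 11 (17.7%), against 5.19% and 7.26%. YY1 letters occurred in 11 (17.7%), against 2.76% and 3.66%. A TATA box was present in 5 members (8.06%), against 15.7% and 14.3%. In all, 37 members (59.7%) held at least 1 of the NRF1, ETS and YY1 motifs, 22 of 37 in the large and 15 of 25 in the small subunit. Among the 16 members with a promoter that rose from P2 to P14, 12 (75%) held at least 1, against 25 of the other 46 (54.3%). The ETS motif was in 9 (56.2%) against 14 (30.4%), while NRF1 and YY1 were each in 3 (18.8%) against 8 (17.4%). These differences were not tested. A match is a description of the letters in this window and not a binding site.

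The arrays showed the labelled tissue. All 8 muscle markers, among them creatine kinase Ckm, troponin Tnnt3 and glycogen phosphorylase Pygm, read above the receptor level of 3.23 at every age. That level, a measure of background, is the 95th percentile of the means of 1411 smell, pheromone and taste receptor genes. Across genes, correlations between replicates lay within 0.953 and 0.964 for P2 arrays, 0.967 and 0.974 for P7 arrays, and 0.981 and 0.984 for P14 arrays, and array medians over all probe sets lay between 3.29 and 3.36.

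The 71 members had means over the 9 arrays between 2.45 and 8.55, with a median of 5.02. Levels of different probe sets are not compared, since each has its own response. Of the 71, 68 had a mean above the receptor level in at least 1 age and 67 at every age. The exceptions were Mrpl27, Mrps14 and Mrps36, below it at each age, and Mrpl28, which averaged 3.20 ± 0.21 at P7 (SD, n = 3). Mrps36 averaged 2.49 ± 0.55, 2.44 ± 0.15 and 2.58 ± 0.22 at P2, P7 and P14. Its protein is now known as a part of the oxoglutarate dehydrogenase complex rather than of the ribosome. Mrpl50 averaged 6.38 ± 0.08 at P14 and 5.88 ± 0.55 at P2, and Mrps15 6.43 ± 0.08 and 6.08 ± 0.23 (SD, n = 3), without a call. The genes Mrpl30, Mrpl33, Mrpl41, Mrpl43, Mrpl44, Mrpl53 and Mrps6 have probe sets shared with another symbol and were not used here.

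Each array was described by setting every member against its own mean over the 9 arrays. On the P2 arrays, replicates 1, 2 and 3, the median of the large subunit was -0.34, -0.28 and -0.03. On the P7 arrays it was -0.08, -0.11 and -0.13, and on the P14 arrays 0.32, 0.32 and 0.26. All 3 P14 arrays lay above all 6 earlier ones, while P2 replicate 3 lay among the P7 arrays or above them.
For the small subunit the values were -0.27, -0.25 and -0.11 at P2, -0.11, 0.06 and -0.10 at P7 and 0.22, 0.27 and 0.25 at P14, again with the P14 arrays on top. Of the 71 members 68, 63 and 63 stood above their own mean on the 3 P14 arrays, against 11 to 30 on the earlier ones. The same median over all genes stayed between -0.03 and 0.02. 

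**Figure D1:**
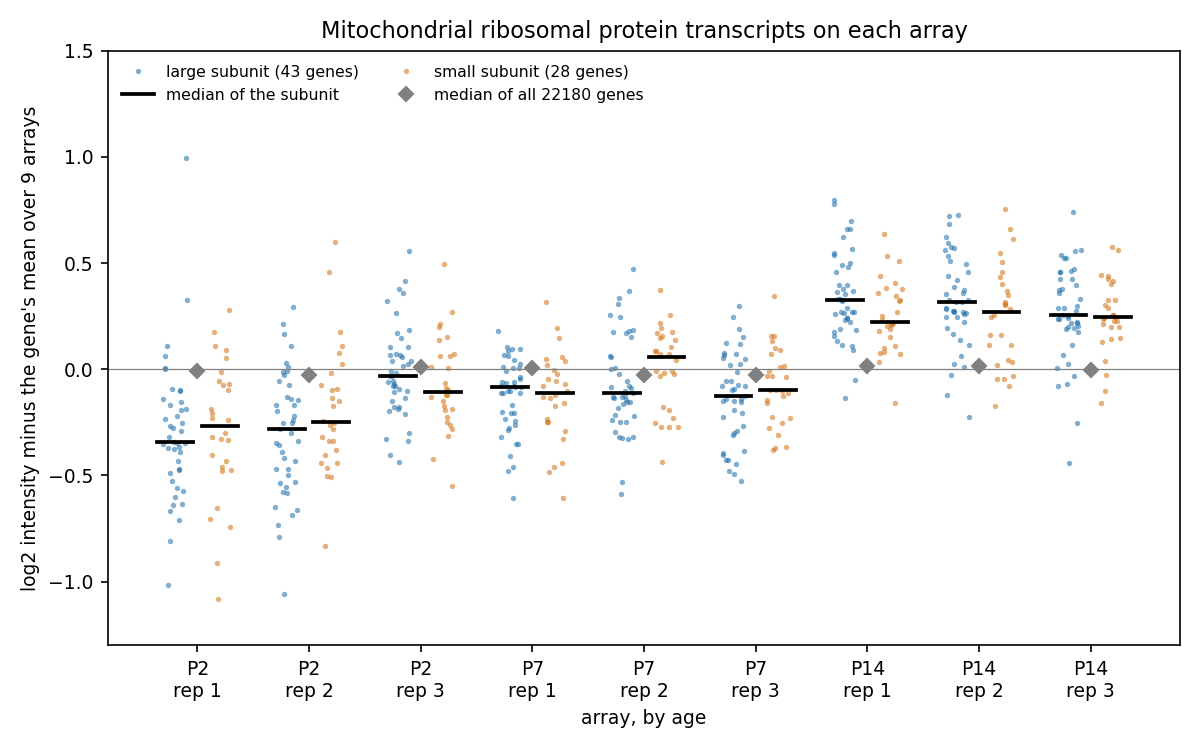
Log2 intensity of each member on each of the 9 arrays, minus the gene's own mean over the 9 arrays (points, large subunit left and small subunit right; black lines, subunit medians; grey diamonds, median of all 22180 genes). The subunit medians of the 3 P14 arrays lie between 0.22 and 0.32, above all P2 and P7 arrays, and P2 replicate 3 lies closer to the P7 arrays than the other 2 P2 arrays do.

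Replicates lay closer together at the later ages. A member's SD over 3 arrays had a median of 0.25 (P2), 0.16 (P7) and 0.12 (P14), beside 0.25, 0.20 and 0.16 for all genes. The largest SD of a member was that of Mrpl20, with 4.97, 3.44 and 3.94 at P2.

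The whole span, P14 against P2, asked which members differed between the first and the last age. Of the 43 large subunit genes 13 rose (30.2%), and of the 28 small subunit genes 8 rose (28.6%). Over all genes 6.63% were called higher and 4.40% lower. Among the 12051 genes whose mean at 1 age or more exceeded 3.65, the median over all genes, 33 of 68 members were called higher (48.5%), against 14.9% of the genes in that set, a filter that favours genes with a high age. The log2 change was above 0 in 68 of the 71 members (95.8%), against 51.8% of all genes. For 47 members all 3 P14 arrays lay above all 3 P2 arrays (66.2%), against 16.2% of all genes, and 45 had an unadjusted p under 0.05 with a higher value, against 13.7%.

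Mrpl54 and Mrpl34 had the largest changes. Mrpl54, a protein of the large subunit, read 6.12, 6.03 and 5.99 at P14, against 4.45, 4.80 and 5.57 at P2. The groups did not overlap, and P2 replicate 3 stood closest to the P14 arrays. The transcript rose 2.15-fold (log2 1.11 ± 0.23, SE; limma adjusted p = 0.00693). Mrpl34, a homologue of a bacterial large subunit protein, read 6.00, 5.73 and 5.72 at P14, against 4.53, 4.90 and 4.76 at P2. All P14 arrays stood apart from the P2 arrays, and the rise was 2.12-fold (log2 1.09 ± 0.18; limma adjusted p = 0.00133).

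Mrpl16 also has a bacterial homologue, which sits near the site of peptide bond formation. It read 6.09, 6.02 and 5.95 at P14, against 4.79, 4.84 and 5.47 at P2, and rose 1.98-fold (log2 0.99 ± 0.20; limma adjusted p = 0.00459). Mrpl38 and Mrpl42 belong to the proteins that animal mitochondrial ribosomes have gained relative to bacterial ones. Mrpl38 rose 1.91-fold and Mrpl42 1.84-fold. Mrpl57 read 4.65, 4.36 and 4.57 at P14, against 3.64, 3.54 and 3.78 at P2, with no overlap, and rose 1.84-fold (log2 0.88 ± 0.17; limma adjusted p = 0.00373).

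In the small subunit the largest changes were those of Mrps28, Mrps5 and Mrps21. Mrps28 read 5.49, 5.40 and 5.29 at P14, against 4.22, 4.62 and 4.71 at P2, and rose 1.83-fold (log2 0.87 ± 0.18; limma adjusted p = 0.00601). Mrps21 rose 1.81-fold (log2 0.86 ± 0.21), with 5.58, 5.24 and 5.17 at P14 against 4.03, 4.54 and 4.85 at P2. The groups of both genes did not overlap. Mrps5, whose P2 values of 4.45, 5.46 and 5.54 were spread by 1 low array, read 5.91, 6.04 and 6.11 at P14. Its call was marginal (log2 0.87 ± 0.27, limma adjusted p = 0.0499; 0.52 and 0.187 without P2 replicate 1).

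The other members that rose were Mrpl19, Mrpl37, Mrpl45, Mrpl47, Mrpl48, Mrpl51, Mrpl55, Mrps22, Mrps23, Mrps27, Mrps33 and Mrps34, with log2 changes of 0.63 to 0.83. Mrps22 and Mrps34 are named for their role, since variants in the human genes cause mitochondrial disease. Mrps34 read 5.36, 5.27 and 5.28 at P14, against 4.48, 4.82 and 4.53 at P2, and rose 1.62-fold (limma adjusted p = 0.0149). With any 1 of the 9 arrays left out, 7 of the 21 calls held, namely Mrpl16, Mrpl34, Mrpl38, Mrpl42, Mrpl54, Mrpl57 and Mrps28. Without P14 replicate 2 the count was 8, and without P2 replicate 1, P14 replicate 1 or P14 replicate 3 it was 11, 10 or 13. Over all genes the calls higher numbered 837 without P14 replicate 2 and 962, 862 and 912 without those arrays, in place of 1470. Every one of the 21 changes stayed above 0 on the log2 scale, at 0.51 to 1.42. Those that moved by over 1.5 times were Mrps5, at 0.52 without P2 replicate 1, and Mrpl55, at 0.54 without P2 replicate 2.

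Members at the other end of the range differed little between P14 and P2. In the large subunit these were Mrpl24 (log2 0.01 ± 0.18, SE), Mrpl52 (-0.17 ± 0.19) and Mrpl20 (-0.24 ± 0.31). In the small subunit they were Mrps26 (0.05 ± 0.19), Mrps7 (0.00 ± 0.18) and Mrps35 (0.00 ± 0.19). Mrpl24 read 6.23, 6.53 and 6.20 at P14, against 6.11, 6.39 and 6.43 at P2, and the groups overlapped. Mrps35 read 4.51, 4.50 and 4.52 at P14, inside the P2 values of 4.41, 4.94 and 4.20. Mrps7, whose bacterial homologue organises the head of the small subunit, read 5.58, 5.38 and 5.25 at P14, against 5.40, 5.25 and 5.55 at P2. None of these 6 was called, which does not show that they stayed level.

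**Figure D2:**
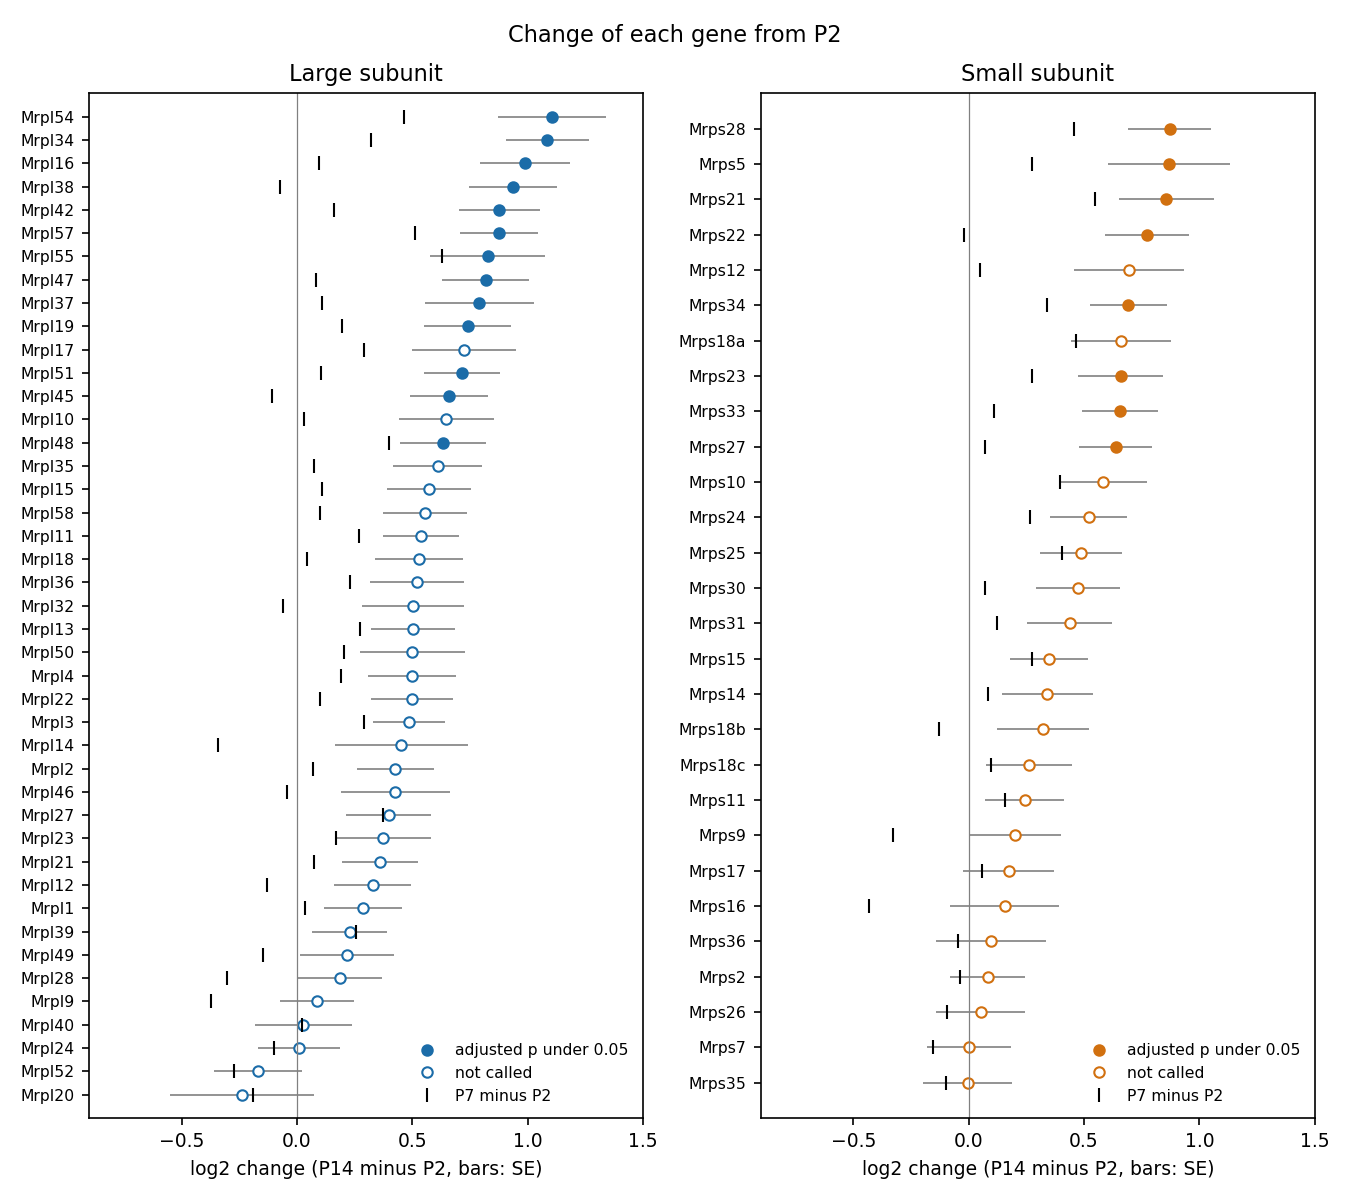
Log2 change of each member from P2 to P14 with its standard error (circles and bars; filled, adjusted p under 0.05) and from P2 to P7 (black ticks), large subunit left and small subunit right, ordered by size. Of the circles 68 lie above 0, and the filled ones are 13 in the large and 8 in the small subunit.

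Some members are known for a particular role. Mrpl12 belongs to the stalk that recruits translation factors and also binds the mitochondrial RNA polymerase. It averaged 4.88 ± 0.20, 4.75 ± 0.14 and 5.21 ± 0.06 at P2, P7 and P14 (SD, n = 3) and was not called (P14 minus P2, log2 0.33 ± 0.17). Mrpl11, at the base of the stalk, read 5.09, 5.34 and 5.24 at P14, against 4.61, 4.60 and 4.85 at P2. The groups did not overlap, yet the gene fell just short of the threshold (log2 0.54 ± 0.17, limma adjusted p = 0.0507).
Mrps12 belongs to the decoding centre, and read 4.22, 4.79 and 4.44 at P14, against 3.38, 4.06 and 3.92 at P2 (log2 0.69 ± 0.24, not called; limma adjusted p = 0.0792). Mrpl3, whose human gene is linked to cardiomyopathy, read 5.82, 5.86 and 5.76 at P14, against 5.34, 5.37 and 5.29 at P2. The groups did not overlap, and the log2 change of 0.48 ± 0.16 was not called (limma adjusted p = 0.0626). Mrps16, linked to mitochondrial disease in humans, read 4.68, 5.50 and 5.08 at P14, against 4.54, 4.91 and 5.33 at P2, with overlap and no call (0.16 ± 0.24).

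The paralogues Mrps18a, Mrps18b and Mrps18c descend from 1 bacterial small subunit protein but occupy different sites, that of Mrps18a being in the large subunit. None of them was called. Their log2 changes from P2 to P14 were 0.66 ± 0.22, 0.32 ± 0.20 and 0.26 ± 0.19. Mrps30, also a large subunit protein in the assembled ribosome despite its symbol, changed by 0.47 ± 0.18, which fell short of a call. With Mrps18a and Mrps30 moved to the large subunit and Mrps36 left out, 13 of 45 large and 8 of 25 small subunit genes rose from P2 to P14, with medians of 0.50 and 0.44.

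The first interval, P7 against P2, gave no call. Limma called 0 of the 71 members, and 6 had a higher and 1 a lower value at an unadjusted p under 0.05, against 6.22% and 6.61% of all genes. Over all genes 0.185% were called higher and 0.144% lower. The median log2 change was 0.10 in the large and 0.09 in the small subunit, against -0.01 over all genes. Of the 71 changes 50 were above 0 (70.4%), against 49.2% of all genes. Arrays of the 2 ages did not overlap in the higher direction for 7 members (9.86%), against 7.30% of all genes. The medians were as high as 0.20 in the large and 0.16 in the small subunit without P2 replicate 3, and 0.03 in the large subunit without P2 replicate 1 or 2.

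The members with the smallest p in that interval were Mrpl57 and Mrps21, named here after their values were seen. Mrpl57 read 4.20, 3.99 and 4.30 at P7, against 3.64, 3.54 and 3.78 at P2, with no overlap (log2 0.51 ± 0.17, limma adjusted p = 0.213). Mrps21 averaged 5.02 ± 0.02 at P7, against 4.47 ± 0.42 at P2 (SD, n = 3; log2 0.55 ± 0.21, limma adjusted p = 0.289). The 1 member lower at an unadjusted p under 0.05 was Mrpl9, at 4.69, 4.65 and 4.75 at P7 against 4.98, 5.19 and 5.04 at P2 (-0.37 ± 0.16, limma adjusted p = 0.351). At P14 it averaged 5.16 ± 0.15 (SD, n = 3).

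The second interval, P14 against P7, gave 6 calls, 5 of 43 in the large subunit (11.6%) and 1 of 28 in the small (3.57%), against 1.72% of all genes called higher and 0.703% called lower. In the same set of 12051 genes, 9 of 68 members were called higher (13.2%), against 5.41% of its genes. That filter favours genes with a high age. The median log2 change was 0.43 in the large and 0.28 in the small subunit, against 0.02 over all genes. Of the 71 changes 69 were above 0 (97.2%), against 52.3% of all genes. At an unadjusted p under 0.05, 33 members were higher, against 9.58% of all genes. All 3 P14 arrays lay above all 3 P7 arrays for 43 members (60.6%), against 14.8% of all genes, 30 in the large and 13 in the small subunit.

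Mrpl38 had the largest change in this interval. It read 5.68, 5.75 and 5.58 at P14, against 4.91, 4.44 and 4.64 at P7, and rose 2.01-fold (log2 1.01 ± 0.19, SE; limma adjusted p = 0.0114). The P7 arrays did not stand above those of P2, at 4.39, 4.89 and 4.92. Mrpl45 is the relative of a yeast protein that ties the ribosome to the inner membrane beside the exit tunnel. It read 5.38, 5.77 and 5.42 at P14, against 4.69, 4.73 and 4.84 at P7, and rose 1.70-fold (log2 0.77 ± 0.17; limma adjusted p = 0.0261). The P2 arrays, at 4.81, 4.81 and 4.97, lay at or above most of the P7 arrays.

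Mrpl16 rose 1.86-fold, with arrays of 6.09, 6.02 and 5.95 at P14, against 5.15, 5.26 and 4.97 at P7 (limma adjusted p = 0.0263). Mrps22, the only small subunit gene called in this interval, read 5.31, 5.41 and 5.23 at P14, against 4.36, 4.52 and 4.70 at P7. It rose 1.73-fold (log2 0.79 ± 0.18; limma adjusted p = 0.0346), and its P2 arrays, at 4.32, 4.46 and 4.86, overlapped those of P7. Mrpl34 read 6.00, 5.73 and 5.72 at P14, against 5.16, 5.20 and 4.80 at P7, and rose 1.70-fold (limma adjusted p = 0.0383). Mrpl42 read 9.03, 9.12 and 9.09 at P14, against 8.28, 8.31 and 8.49 at P7, and rose 1.64-fold (limma adjusted p = 0.0491). In none of the 6 genes did the P14 arrays overlap those of P7.

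Every one of the 6 calls was lost when some array of P7 or P14 was left out (adjusted p up to 0.184, for Mrpl34 without P14 replicate 1), and leaving out any P7 or P14 array left 0 or 1 call. The log2 changes of the 6 genes stayed between 0.64 and 1.14, and over all genes the calls higher fell to between 126 and 205, in place of 382. With cyclic loess between arrays, 2 were called, Mrpl38 and Mrpl16, and the split over all genes was 240 higher and 213 lower in place of 382 and 156.

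**Figure D3:**
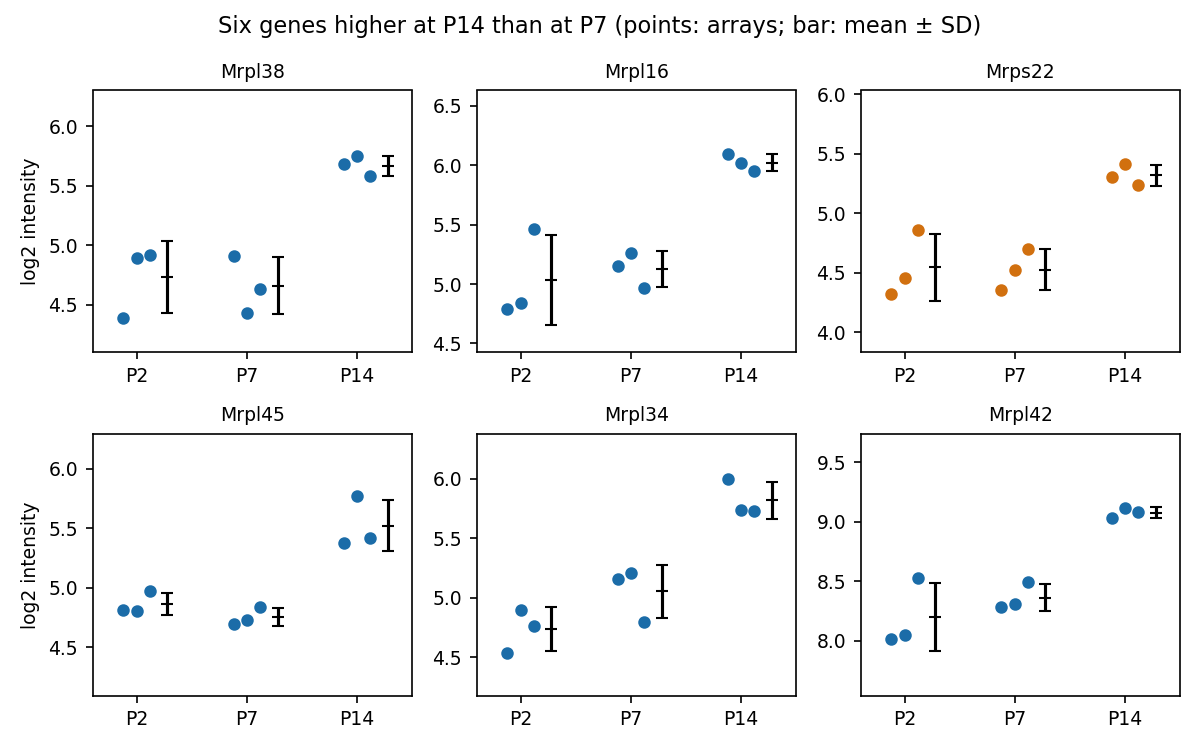
Log2 intensity of the 6 genes called higher at P14 than at P7, at P2, P7 and P14 (points, single arrays; bars, mean and SD of 3 arrays; blue, large subunit; orange, small subunit; each panel spans the same range of 2.2 units). The 3 P14 arrays of each gene lie above its 3 P7 arrays, and the P2 and P7 arrays overlap in all 6.

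The change in the second interval was set against that in the first, which are 7 and 5 days long and share the P7 arrays. Limma called no member for a difference between them (smallest adjusted p = 0.330, Mrpl38), against 0.194% of all genes in either direction. At an unadjusted p under 0.05 the later change was larger for 9 members, against 4.60% of all genes, and smaller for 0. These were Mrpl9, Mrpl14, Mrpl16, Mrpl28, Mrpl38, Mrpl45, Mrps9, Mrps16 and Mrps22. A second probe set of Mrps16 did not share this pattern, with 0.20 and then 0.01. Mrpl38 had -0.07 and then 1.01, whereas Mrpl55 had 0.63 and then 0.20 and Mrpl57 0.51 and then 0.37.

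The 2 subunits were compared by their medians only, with no test. The large minus the small subunit was 0.01 for P7 against P2, 0.15 for P14 against P7 and 0.05 for P14 against P2 on the log2 scale. On single arrays, the difference of the medians ranged from -0.08 to 0.08 at P2, from -0.17 to 0.03 at P7 and from 0.01 to 0.10 at P14. The ranges of P2 and P14 overlapped, and so did those of P7 and P14. P7 replicate 1, at 0.03, lay above P14 replicate 3, at 0.01, and P7 replicate 2 gave the lowest value. With 1 array left out, the difference was as low as 0.087 for P14 against P7 (without P7 replicate 1) and as high as 0.115 for P14 against P2 (without P14 replicate 3). For P7 against P2 it ran from -0.11 without P2 replicate 2 to 0.038 without P2 replicate 3. With subunits assigned by structure the difference for P14 against P7 was 0.09.

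Genes that work with the ribosome were read from lists. From P2 to P14, 6.63% of all genes were called higher and 4.40% lower. Of 3 measured mitochondrial ribosomal proteins that carry other symbols, Ptcd3 and Gadd45gip1 rose from P2 to P14 and Dap3 was not called. Ptcd3, a small subunit protein at the entry of the messenger RNA, averaged 7.01 ± 0.19 at P14 and 5.98 ± 0.29 at P2 (SD, n = 3; log2 1.03, limma adjusted p = 0.00266). Of 24 assembly factors 1 rose over that span (4.17%, below the share of all genes, median 0.27), the GTPase Noa1. Of 14 translation factors 3 rose (21.4%, median 0.35). These were the elongation factor Gfm1, the recycling factor Gfm2 and Taco1, an activator of the translation of a cytochrome oxidase subunit. Taco1 averaged 6.02 ± 0.20 at P14 and 4.59 ± 0.48 at P7 (log2 1.43, limma adjusted p = 0.00225).

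Of 16 mitochondrial tRNA synthetases Lars2 and Sars2 rose from P2 to P14 (12.5%, median 0.28), beside 6.63% of all genes called higher. Of 11 genes for the copying and transcription of mitochondrial DNA, the single-strand binding protein Ssbp1 rose (9.09%, median 0.16). No gene of these lists was called lower from P2 to P14. Of 76 listed nuclear genes of the respiratory chain 69 were measured, with 48 rises from P2 to P14 (69.6%, median 0.83). From P7 to P14 they had 9 rises (13%, median 0.51), beside 1.72% of all genes called higher. Their median from P2 to P7 was 0.27, beside 0.10 for the mitochondrial ribosomal proteins. Cytosolic ribosomal proteins had 1 rise and 8 falls among 53 from P2 to P14 (median -0.18), beside 4.40% of all genes called lower.

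The 10 listed respiratory chain genes of mitochondrial DNA (ND1 to ND6, ND4L, CYTB, COX1 and COX3) gave no call in any pair of ages. They are part of what this ribosome translates. For P14 against P2 1 was higher at an unadjusted p under 0.05. Of the 10, 9 had means above 12 at every age, where the highest value in the table is 13.46, and whether a rise could be measured so near the top of the scale was not tested. COX1, for example, averaged 12.66 ± 0.05 at P14 and 12.68 ± 0.04 at P2.

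**Figure D4:**
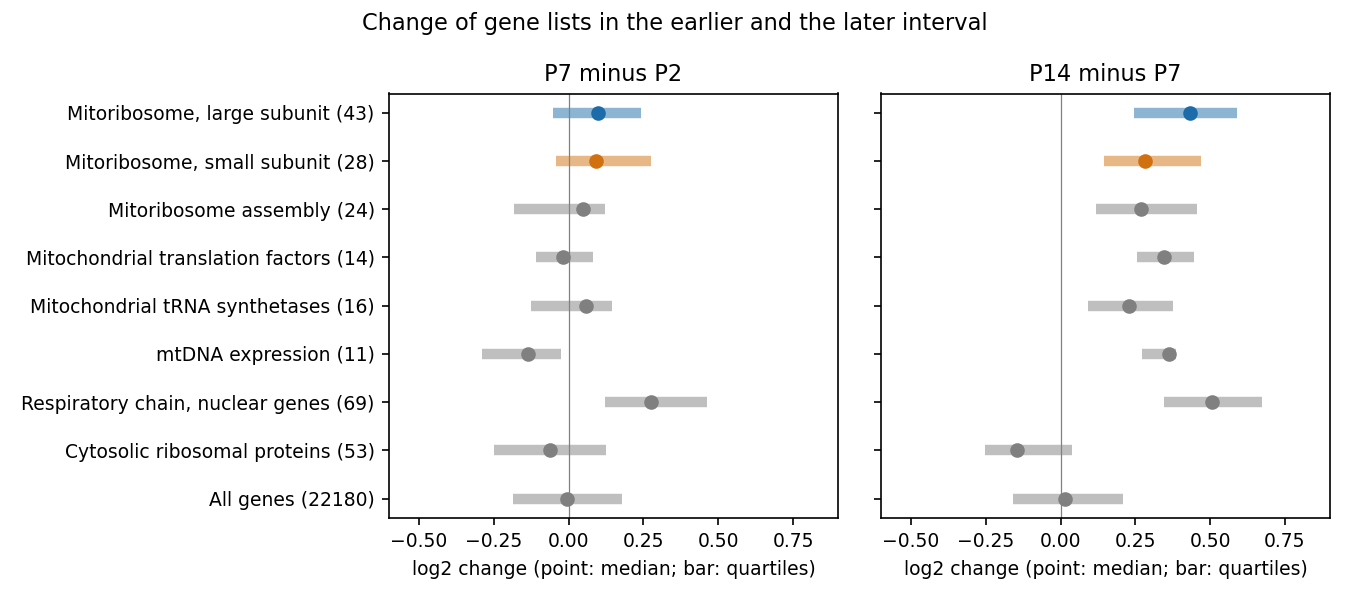
Median (points) and quartiles (bars) of the log2 change in each gene list, for P7 minus P2 (left) and P14 minus P7 (right), with the number of measured genes in brackets. In the later interval both mitoribosome subunits (medians 0.43 and 0.28) lie with the other mitochondrial lists above 0, and the cytosolic ribosomal proteins lie at -0.14.

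In whole muscle, more cells of a type and more RNA per cell cannot be told apart. The summed intensity of the 8 muscle markers was 15084 to 16137 at P14, against 9852 to 11174 at P2, and 4 of them rose over that span. Summed fibroblast markers (4 of 4 measured) were at 2991 to 3508 at P14, against 3535 to 5215 at P2, with 1 fall, Pdgfra. Of these 4, 3 changed below 0, while Dcn went the other way (log2 0.36, not called). Cartilage markers (4 of 4) were at 73 to 75 at P14, against 83 to 375 at P2, with 1 fall. Neutrophil precursor markers (6 of 6) were at 40 to 46 at P14, against 43 to 153 at P2, with 2 falls, and all 6 were at or below the receptor level at P14. Endothelial markers (4 of 4) were at 629 to 694 at P14, against 393 to 614 at P2, with no call and 2 higher at an unadjusted p under 0.05. Macrophage markers (4 of 4) were at 111 to 128 at P14, against 108 to 199 at P2, with no call. Adipocyte markers (3 of 4) were at 36 to 47 at P14, against 47 to 78 at P2, with 1 fall, Adipoq. Of 5 erythroid markers 1 was measured, at 12 to 18 at P14, against 13 to 116 at P2. The part of these differences in the members' rises was not tested.

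For 9 members a second single-symbol probe set exists, and the one with the higher mean was used. For Mrpl10, Mrpl12, Mrpl36, Mrpl47, Mrps5, Mrps17 and Mrps18c the other one averaged below the receptor level of 3.23 at 1 age or more. In that order, the other ones changed by -0.23, 0.55, -0.10, -0.03, 0.05, 0.17 and -0.18 from P2 to P14. That of Mrpl10, below the level only at P14, changed by -0.42 from P7 to P14, against 0.62 for the one used. With the mean of probe sets, Mrpl47 and Mrps5 were not called from P2 to P14 (limma adjusted p = 0.201 and 0.112). For Mrps16 the other one changed by 0.21 from P2 to P14, against 0.16 for the one used. The 2 differed within that span. The other one changed by 0.20 from P2 to P7 and 0.01 from P7 to P14, against -0.43 and 0.59. For Mrps18b, the other one changed by 0.38, against 0.32.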

How the data were processed

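RNA from 3 muscle samples at each of 3 ages was hybridised to 9 arrays. The deposited values are log2 intensities of 41345 probe sets. RMA and Partek made these values, per the submitters' processing notes, which name no version or settings. As a method, RMA removes background, makes arrays comparable and summarises probes on the log2 scale, where small changes of dim genes are compressed. Raw intensities were not used here. The array annotation gave 1 symbol to 23521 probe sets and several to 1814; the other 16010 are unnamed here. Where a gene had several probe sets, that of the highest 9-array mean stood for it, with no filter on dim genes. The genome build is not stated in the labels.

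Limma 3.58.1 in R 4.3.3 fitted 1 mean per age with a shared spread, and contrasts for each pair of ages and for the difference between the intervals. Tests were two-sided, with Benjamini-Hochberg adjustment over 22180 genes at 0.05. The fit was also run on simulated data, drawn for each gene separately with no effect shared across an array. That run does not show how stable the calls are. Since no label says that replicates are separate animals, p-values reflect only the spread among these samples, which may be technical. Having 3 arrays per age limits precision. Alternatives were a replicate block, 2 other normalizations, a filter on dim genes, the mean of probe sets, a robust trend in the spread, and each array left out. Arrays with the same replicate number did not deviate together (correlations -0.029 to 0.057).

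Named genes were, per pair of ages, up to 6 called members with the largest rises and falls; per subunit the 3 highest, 3 lowest, 3 brightest and 3 dimmest; and members with a known role. Members, lists and rule were chosen with earlier results of these data known. Promoters came from RefSeq.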

Additional observations from a re-analysis of the deposited data

How the results depend on the processing

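The rises from P2 to P14 numbered 33 of 68 members after removal of dim genes, against 14.9% of the genes kept. That filter favours genes with a high age. With 1 array left out, the rises numbered 8 to 28, beside 3.77% to 7.52% of all genes, in place of 21 and 6.63%. Those from P7 to P14 numbered 2 with cyclic loess and 0 to 8 with 1 array left out, beside 6. No member was called lower, and none from P2 to P7 or between the intervals, under any alternative run. No called change turned its sign.

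With cyclic loess the median from P7 to P14 was 0.32 in the large and 0.19 in the small subunit, and that of the small subunit from P2 to P14 was 0.37; the cause was not tested. With 1 array left out, the median of the large subunit was 0.028 to 0.20 from P2 to P7 and 0.49 to 0.62 from P2 to P14, that of the small subunit 0.39 to 0.57 from P2 to P14, and the large minus the small subunit -0.11 to 0.038 from P2 to P7.

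With a replicate block, 4 members rose from P7 to P14 and 20 from P2 to P14, beside 1.42% and 6.27% of all genes. Of the 21 calls from P2 to P14 without it, those of Mrpl37, Mrpl48, Mrpl55, Mrps5 and Mrps23 were lost. The 20 thus include other members. The replicate numbers share no stated origin.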
